A study of Mus musculus with 2 samples.

Results

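The genes described here set the direction of glucose flow through the liver. They are Pck1, G6pc, Fbp1 and Pcx, which encode enzymes of gluconeogenesis, Pklr, which encodes the pyruvate kinase of the liver, Slc2a2, which encodes the glucose transporter GLUT2, and Irs1 and Irs2, which encode the proteins that carry the signal from the insulin receptor into the cell. They were taken by symbol from the gene tables of both sections, where 8 of 8 were found among 32285 gene identifiers. The measurement was spatial transcriptomics (ST) with 10x Visium, in which a tissue section lies on a slide of barcoded spots and reads that share a unique molecular identifier (UMI) are counted as 1 RNA molecule. The liver of 1 mouse on a normal chow diet (NCD) and that of 1 mouse on a high-fat diet (HFD) gave a 10 µm section each. Per the study's methods both were male C57BL/6J mice, bought at 5 weeks of age and kept for 1 week before the diets began. The HFD mouse ate a 60% fat diet for 14 weeks and for the following 8 weeks of gavage with distilled water, while the NCD mouse ate chow throughout and was given the same water. The feeding state and the time of day at collection are not given in the sources used here.

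With 1 section per diet there was no test. Diet, mouse, section and slide cannot be told apart, and the 95% intervals below cover counting error only. The NCD section had 3692 spots over tissue, 29037988 UMIs in all and 4187.5 in the median spot, and the HFD section had 3594 spots, 72118803 UMIs and 18549 in the median spot. The spots of the NCD slide called off tissue had a median of 3383 UMIs against 1175.5 on the HFD slide, and held 19.1% of all UMIs of the NCD slide against 2.93%. Whether the tissue call of the NCD slide is right was not tested, since images were not used, and "over tissue" there rests on it. The labels name the cell line as hematopoietic stem cell and the cell type as immune cell, and the data go against both. Markers of hepatocytes summed to 120364 UMIs per 1000000 UMIs of the spots (CPM) in the NCD section and 138266 CPM in the HFD section, while 7 markers of hematopoietic stem cells summed to 6.75 and 10.6 CPM. A spot holds several cells, so fewer cells of a type and less RNA per cell cannot be told apart.

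As background, the liver makes glucose from lactate, glycerol and amino acids during fasting, and takes it up and breaks it down after a meal. Pyruvate carboxylase (Pcx) and phosphoenolpyruvate carboxykinase (Pck1) begin the path to glucose, fructose bisphosphatase (Fbp1) works midway, and the glucose-releasing phosphatase G6pc ends it, while pyruvate kinase runs the opposite way at the end of glycolysis. Insulin, acting through IRS1 and IRS2, keeps the forkhead factor FOXO1 out of the nucleus and lowers transcription of Pck1, G6pc and Irs2. Glucose itself raises transcription of Pklr through the factor ChREBP. In the healthy lobule gluconeogenesis is a task of the periportal end, where blood enters, and glycolysis of the pericentral end, where it leaves.

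All 8 genes had an entry among the RefSeq promoters of build GRCm38.p6. The 250 bases before the start are shown for 5 of them, because they hold letters known from the control of these genes by cyclic AMP, insulin or glucose. Capitals mark every match, on either strand, to one of 6 motifs, given with its share among the 32851 promoter entries cut to this length. The cyclic AMP response type was searched as TGACGT and was in 6.47% of entries. The insulin response type was searched as TGTTTTG and was in 5.56% of them. The forkhead type, TGTTTAC, was in 3.17% and in no member. The E-box was searched as CACGTG and was in 6.02% of entries. The TATA box was searched as TATAAA, which 12.4% held, and the general form of the carbohydrate response element was in 0.454%. A match is a description of the letters and not a site shown to be used in these livers.

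The start of Pck1 has the cyclic AMP response type in reverse (chr2:173152823-173153072, forward strand).
Pck1: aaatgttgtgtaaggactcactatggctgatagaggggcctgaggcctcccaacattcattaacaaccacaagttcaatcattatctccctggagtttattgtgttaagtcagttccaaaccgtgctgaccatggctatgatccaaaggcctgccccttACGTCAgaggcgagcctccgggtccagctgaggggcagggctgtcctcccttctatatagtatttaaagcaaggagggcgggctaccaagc
That of G6pc has the insulin response type and a TATA box (chr11:101367466-101367715, forward strand).
G6pc: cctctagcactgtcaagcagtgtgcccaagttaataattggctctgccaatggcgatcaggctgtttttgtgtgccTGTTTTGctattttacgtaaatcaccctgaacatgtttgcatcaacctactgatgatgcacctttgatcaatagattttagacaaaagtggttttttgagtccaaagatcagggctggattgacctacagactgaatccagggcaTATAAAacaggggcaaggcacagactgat
Pklr has 2 listed starts, and the downstream one has the carbohydrate response element and a TATA box (chr3:89136373-89136622, forward strand).
Pklr: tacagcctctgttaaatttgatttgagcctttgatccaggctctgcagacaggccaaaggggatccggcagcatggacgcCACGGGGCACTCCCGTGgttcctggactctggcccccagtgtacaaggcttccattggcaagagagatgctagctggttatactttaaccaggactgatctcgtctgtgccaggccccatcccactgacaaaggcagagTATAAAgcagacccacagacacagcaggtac
Irs1 has an E-box that runs into the insulin response type, and a further match nearer the start (chr1:82291440-82291689, reverse strand).
Irs1: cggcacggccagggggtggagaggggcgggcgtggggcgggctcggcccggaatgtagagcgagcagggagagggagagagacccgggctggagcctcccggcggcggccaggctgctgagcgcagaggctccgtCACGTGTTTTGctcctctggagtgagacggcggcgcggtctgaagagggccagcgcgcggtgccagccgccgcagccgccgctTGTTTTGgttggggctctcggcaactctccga
Irs2 has the same pair of motifs with 1 base between them (chr8:11008930-11009179, reverse strand).
Irs2: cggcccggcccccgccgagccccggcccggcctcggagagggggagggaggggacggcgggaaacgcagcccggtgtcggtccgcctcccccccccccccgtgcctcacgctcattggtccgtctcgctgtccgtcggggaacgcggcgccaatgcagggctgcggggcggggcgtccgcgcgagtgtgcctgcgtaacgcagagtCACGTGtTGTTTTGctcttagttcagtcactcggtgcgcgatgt

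An E-box with the insulin response type overlapping it or at most 2 bases after it, a pair looked for after it was seen in Irs1 and Irs2, was in 7 entries (0.0213%), which belong to Irs1, Irs2, Irs4, Klf11, Pcbp1, Pyroxd1 and 1700019P21Rik. Of the other members, only the upstream start of Pcx held any of these letters, an E-box. The windows of Irs1 and Irs2 were 72.4% and 72.8% G or C, against 43.2% for G6pc.

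Between the sections, 3 of the 4 genes of the path to glucose differed little and G6pc was higher in the HFD section. Pyruvate kinase and the glucose transporter were higher there too, and both insulin receptor substrates were lower. Past 1.5-fold, the fold used as a call here, were Pklr and Slc2a2 on the higher side and Irs1 and Irs2 on the lower side. Of the 6422 genes that reached 1000 UMIs over both sections, 18.9% were at least 1.5-fold higher in the HFD section and 4.13% at least 1.5-fold lower. Irs1 and Irs2 were below that minimum, and of the 6 members that passed it 2 were higher and 0 lower past 1.5-fold, too few to set apart from the share of all genes. Among the 8417 genes whose mean over the sections reached 5 CPM, a minimum set after the values were seen that all members pass, the shares were 20% and 4.44%. The median log2 ratio of HFD over NCD was 0.19 over the 6422 genes and 0.16 over the 8 members. It was 0.07 over the 2576 genes with at least 1000 UMIs in each section, so the middle of all genes depends on the minimum.

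Pck1, the main control step of the path, was at 1735 CPM (1719 to 1750) in the NCD section and 1886 CPM (1876 to 1896) in the HFD section. Its log2 ratio was 0.12 (0.11 to 0.14), below the median of the 6422 genes. Fbp1 was at 1401 CPM in the NCD section and 1532 CPM in the HFD section, with a log2 ratio of 0.13 (0.11 to 0.15). Pcx, which feeds pyruvate into the path, was at 392 and 447 CPM, a log2 ratio of 0.19 (0.16 to 0.22). These 3 enzymes were therefore higher in the HFD section by no more than the median of the 6422 genes. Summed over all spots, they were higher by more than the 0.07 of the genes with at least 1000 UMIs in each section. For Pck1 this depended on the summing. Its log2 ratio was 0.0075 as a mean over spots and 0.02 (-0.03 to 0.07) with spots drawn down to 1000 UMIs. It was 0.06 with the 5 lobule positions described below given equal weight. Fbp1 was at 0.08, 0.12 and 0.09 in these settings, and Pcx at 0.19, 0.29 and 0.23. With the UMIs of the hepatocyte markers as the total, which lowers every log2 ratio by 0.20, the signs turned to -0.0790 for Pck1, -0.0711 for Fbp1 and -0.00994 for Pcx.

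G6pc stood apart from the rest of the path. It was at 250.2 CPM (244 to 256) in the NCD section, from 7264 UMIs, and at 368 CPM (364 to 373) in the HFD section, from 26573 UMIs. This is a 1.47-fold higher level (1.44 to 1.51), just short of the fold used. The number of G6pc UMIs per Pck1 UMI was 0.144 in the NCD and 0.195 in the HFD section, a log2 difference of 0.44 (0.40 to 0.48). G6pc was past 1.5-fold in 4 alternative settings, with log2 ratios of 0.68 as a mean over spots, 0.75 with spots drawn down to 1000 UMIs, 0.71 after subtraction of the off-tissue profile and 0.60 without the 1% of spots richest in it, and it was at 0.36 per hepatocyte marker UMI.

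Pklr had the largest ratio of the members on the higher side. It was at 18.4 CPM (16.9 to 20.1) in the NCD section, from 535 UMIs, and at 40.3 CPM in the HFD section, from 2905 UMIs, a 2.19-fold higher level (1.99 to 2.40). Over the 10 alternative settings its log2 ratio stayed between 0.93 and 1.33. For each Pklr UMI there were 94.1 UMIs of Pck1 in the NCD section (86.5 to 103) and 46.8 in the HFD section (45.1 to 48.6). The balance of these opposing enzymes was thus shifted towards pyruvate kinase, at the RNA level, by 1.01 on the log2 scale (0.87 to 1.14). Fbp1 gave a like shift, with 76.1 and 38.0 UMIs per Pklr UMI. Both shifts rest on the same Pklr UMIs and mostly restate the ratio of Pklr, since Pck1 and Fbp1 differed little between the sections.

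Slc2a2, through which glucose enters and leaves the hepatocyte, was at 163 CPM (158 to 168) in the NCD section and 273 CPM in the HFD section. It was 1.68-fold higher (1.62 to 1.73), and its log2 ratio per hepatocyte marker UMI was 0.55, under 1.5-fold. G6pc and Slc2a2, the last enzyme of glucose release and its exit, were both higher, Slc2a2 by more. There were 1.54 UMIs of G6pc per Slc2a2 UMI in the NCD and 1.35 in the HFD section, a log2 difference of -0.19 (-0.25 to -0.13).

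Irs2 was the member with the largest ratio on the lower side. It was at 12.6 CPM (11.3 to 13.96) in the NCD section, from 366 UMIs, and at 5.67 CPM (5.13 to 6.25) in the HFD section, from 409 UMIs. That is a 2.22-fold lower level (1.92 to 2.57). Irs1 was at 12.4 CPM in the NCD section, from 361 UMIs, and at 7.78 CPM in the HFD section, from 561 UMIs, a 1.60-fold lower level (1.40 to 1.83). UMIs of Irs2 per UMI of Irs1 numbered 1.01 (0.874 to 1.18) in the NCD section and 0.729 (0.640 to 0.830) in the HFD section. The 2 genes are thin in these data, and drawing every spot down to 1000 UMIs left 30 and 37 UMIs of Irs1, with a log2 ratio of -0.03 (-0.76 to 0.72), and 20 and 15 of Irs2, at -0.75 (-1.82 to 0.29). Irs1 was also under 1.5-fold, at -0.57, without the 1% of spots with the most UMIs of it.

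**Figure D1:**
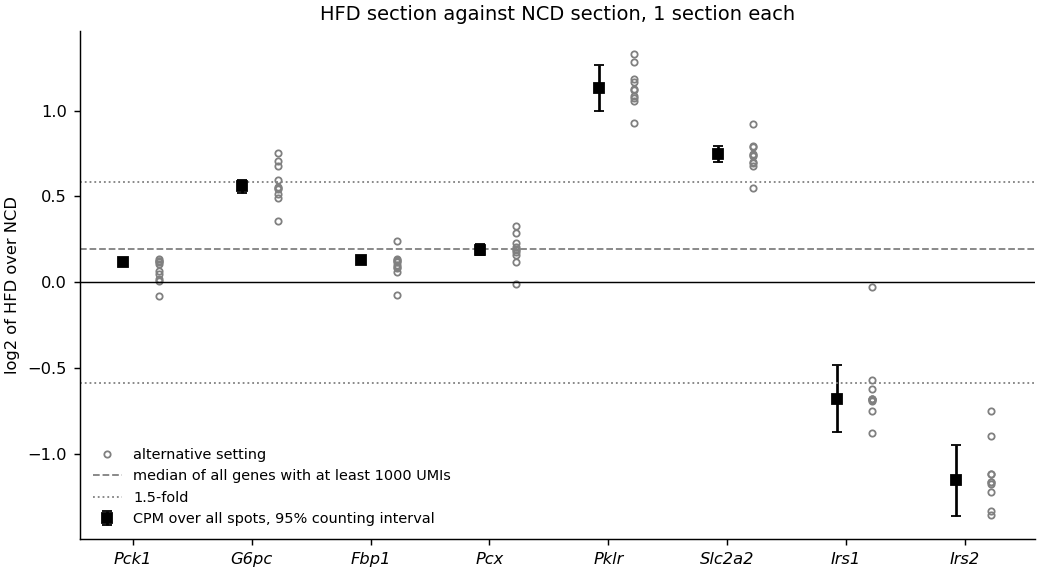
The log2 ratio of the HFD section over the NCD section is plotted for the 8 genes. Black squares are CPM over all spots with the 95% counting interval, and open circles are the 10 alternative settings. The dashed line is the median of all genes with at least 1000 UMIs, at 0.19, and dotted lines mark 1.5-fold. Pklr and Slc2a2 lie above the upper dotted line, Irs1 and Irs2 below the lower one, and Pck1, Fbp1 and Pcx near the dashed line.

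Depth differed within and between the sections. The spots over tissue of each section were split by their UMIs into 4 depth classes of equal size, and the nearest pair between the sections was the NCD class with a median of 6961 UMIs and the HFD class with a median of 8990. Between these classes Pck1 was at 1813 and 1683 CPM, opposite in direction to the ratio over all spots, while Irs2 was at 12.1 and 5.52 CPM and Pklr at 20.5 and 42.3 CPM. Pck1 was lower in deeper spots of the NCD section, from 2131 CPM in the shallowest class to 1683 CPM in the deepest, and higher in deeper spots of the HFD section, from 1683 to 1994 CPM. Irs2 was at 6.24 CPM (1.29 to 18.2) in the shallowest NCD class and 13.7 CPM (12.1 to 15.4) in the deepest. Depth also differed along the lobule, as given below, so the depth classes differ in lobule position too. The part of depth in these ratios was not tested beyond these values and the drawn-down counts. Mitochondrial genes took 8.51% of the UMIs of the NCD section and 5.64% of those of the HFD section.

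Position in the lobule was read from other genes. Each spot with at least 1000 UMIs was ranked within its section by 9 periportal landmark genes, Cyp2f2 and Ass1 among them, over 11 pericentral ones, Glul and Cyp2e1 among them, and the ranks were divided into 5 positions of equal size, from position 1, pericentral, to position 5, periportal. This placed 2822 spots of the NCD section, which held 98.5% of its UMIs, and 3588 of the HFD section. None of the 8 genes was a landmark. Depth ran in opposite directions along the lobule. The median spot had 8077 UMIs at position 1 and 4272.5 at position 5 of the NCD section, against 18159 and 27723 in the HFD section. The parts of depth and position in the differences of Pck1 between depth classes, and in the gradients below, were not tested. Position is relative, and because a spot is wider than a few cells it mixes neighbouring positions.

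The gluconeogenic enzymes differed in their gradients. The median log2 ratio of the periportal over the pericentral end over the 6422 genes was -0.15 in the NCD section, with quartiles of -0.37 and 0.05, and -0.12 in the HFD section, with quartiles of -0.28 and 0.02. In the NCD section Pck1 was at 1218, 1565, 1755, 2027 and 2286 CPM from position 1 to position 5. In the HFD section it was at 1452, 1772, 1831, 1988 and 2206 CPM. Every step was upward in both sections, with intervals that left out 0, and the periportal end was 1.88-fold higher (1.82 to 1.94) in the NCD section and 1.52-fold higher (1.49 to 1.55) in the HFD section. Fbp1 was at 1125, 1288, 1427, 1553 and 1724 CPM along the NCD lobule and at 1398, 1486, 1494, 1540 and 1666 CPM along the HFD lobule. Its steps were upward too, except that positions 2 and 3 of the HFD section did not differ beyond counting error. The periportal end was 1.53-fold higher for Fbp1 in the NCD section and 1.19-fold higher in the HFD section.

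Pcx ran the other way. It was at 426 CPM at the pericentral and 352 CPM at the periportal end of the NCD section, and at 517 and 383 CPM in the HFD section, so that the pericentral end was 1.21-fold and 1.35-fold higher. G6pc was nearly flat, with 226 CPM at position 1 and 248 to 267 CPM in the rest of the NCD section, and 353 to 381 CPM in the HFD section. The log2 ratio of Pcx, -0.27 in the NCD section, lay within the quartiles of all genes there, and its -0.43 in the HFD section lay below them, short of 1.5-fold in both. G6pc had log2 ratios between the ends of 0.24 (0.12 to 0.35) and 0.10 (0.05 to 0.15). Though small, both lay above the upper quartiles of all genes, on the periportal side.

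Pklr did not differ beyond counting error between the ends of the NCD section, at 16.4 CPM (13.4 to 20.03) at the pericentral and 16.5 CPM (12.9 to 20.9) at the periportal end. In the HFD section it was at 51.3, 45.1, 36.9, 36.6 and 34.6 CPM, a pericentral end 1.49-fold higher (1.34 to 1.65). Slc2a2 had no gradient beyond counting error between the ends, with 157 and 158 CPM in the NCD section and 276 and 273 CPM in the HFD section. Irs1 was pericentral in both sections, at 16.4 and 8.62 CPM in the NCD section, 1.91-fold (1.29 to 2.88), and at 10.6 and 6.07 CPM in the HFD section, 1.75-fold (1.37 to 2.24). Irs2 was not, at 13.5 and 13.2 CPM in the NCD section and 5.82 and 6.02 CPM in the HFD section. Position 5 of the NCD section held 36 UMIs of Irs1 and 55 of Irs2, so smaller gradients were not detectable there.

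Past 1.5-fold between the ends were Pck1 and Fbp1 on the periportal side and Irs1 on the pericentral side in the NCD section, and Pck1 and Irs1 in the HFD section. Among the 6422 genes, 3.64% were at least 1.5-fold higher at the periportal end and 11.4% at the pericentral end in the NCD section, and 3.01% and 6.37% in the HFD section. Pck1 and Fbp1 were close to the fold in places. With 3 positions in place of 5 the log2 ratio was 0.46 for Pck1 and -0.57 for Irs1 in the HFD section and 0.48 for Fbp1 in the NCD section, all short of it.

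**Figure D2:**
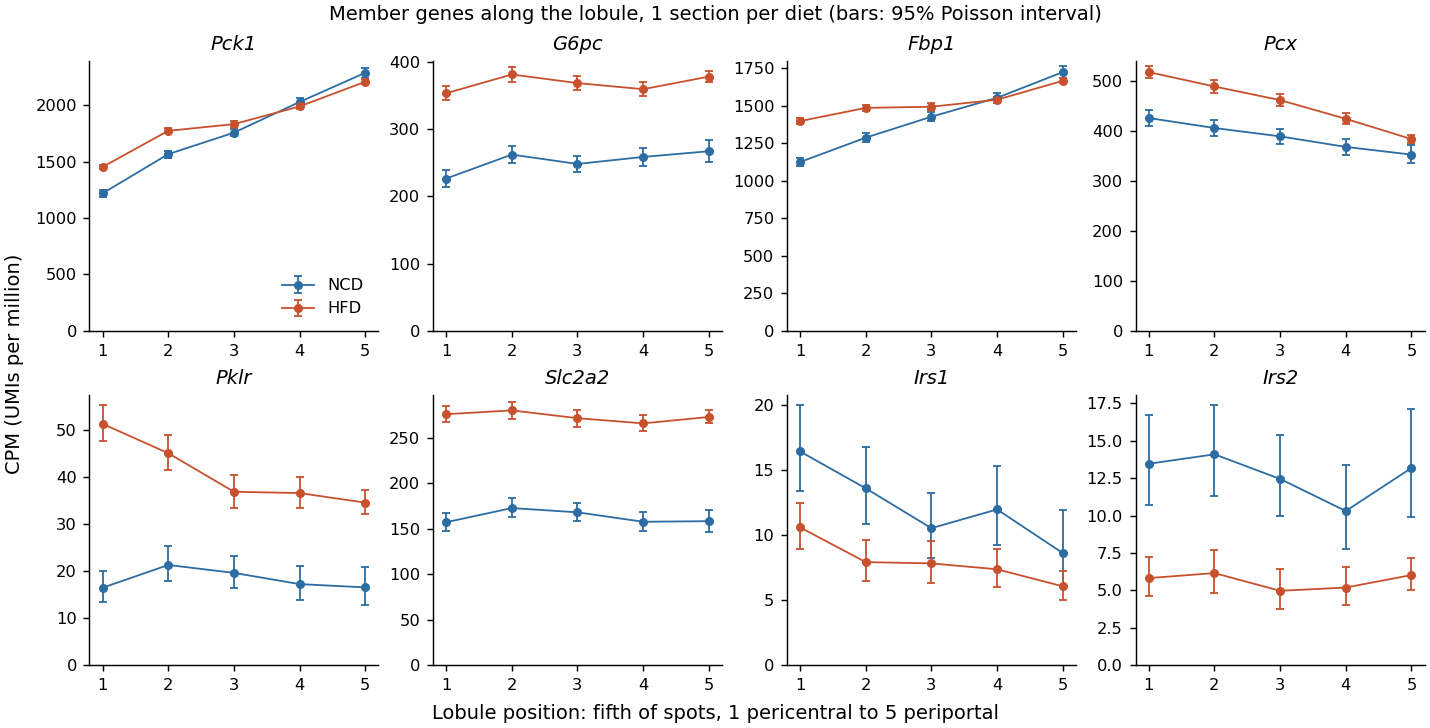
CPM of each gene is plotted against lobule position, from 1 (pericentral) to 5 (periportal), with the NCD section in blue, the HFD section in orange and bars for the 95% Poisson interval; each vertical axis starts at 0. Pck1 and Fbp1 slope upward to the periportal end and the sections meet there, Pcx slopes downward, and G6pc, Slc2a2 and Irs2 run as separate, nearly level lines.

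Set side by side by position, the ratio of HFD to NCD differed along the lobule for some genes. For Pck1 the log2 ratio was 0.25 (0.21 to 0.29) at position 1 and -0.05 (-0.08 to -0.02) at position 5. For Fbp1 it was 0.31 (0.27 to 0.35) and -0.05 (-0.09 to -0.01). Both enzymes were therefore higher in the HFD section at the pericentral end, and not at the periportal end. The median of all genes was taken over whole sections and not by position. The hepatocyte markers had a like course, with log2 ratios of 0.28 at position 1 and 0.09 at position 5. Per hepatocyte marker UMI, a total added after the values were seen, Pck1 was at -0.02 and -0.14 at these positions and Fbp1 at 0.04 and -0.14. The gradient between the ends was shallower in the HFD section by 0.30 for Pck1 (0.25 to 0.35) and by 0.36 for Fbp1 (0.31 to 0.42), on the log2 scale, and it was shallower in all 11 alternative settings.

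For Pklr the ratio was 3.12-fold at position 1, 51.3 against 16.4 CPM, and 1.88-fold to 2.12-fold in the rest. The gradients of Pklr differed by -0.58 on the log2 scale (-1.05 to -0.11), a 1.49-fold difference, and by -0.12 to -0.77 over the alternatives, the smallest with position from Cyp2f2 and Cyp2e1 alone. Slc2a2 was higher in the HFD section by a log2 ratio of 0.69 to 0.81 at every position and G6pc by 0.47 to 0.64. Irs2 was lower at every position, by 1.99-fold to 2.51-fold. Irs1 was lower at every position too, by 1.35-fold to 1.72-fold, with intervals that reached 0 on the log2 scale at positions 3 and 5. None of the 8 gradients differed past 1.5-fold between the sections, while among the 6422 genes 5.39% did in the periportal direction and 4.36% in the pericentral direction.

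**Figure D3:**
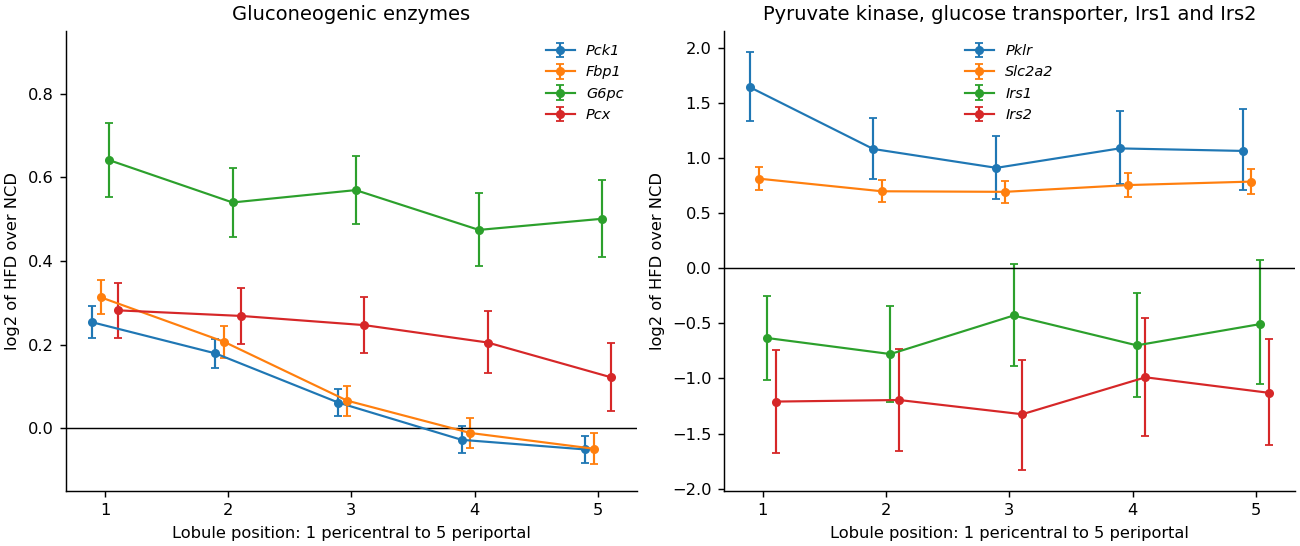
The log2 ratio of HFD over NCD is plotted at each of the 5 lobule positions, with 95% counting intervals, for the gluconeogenic enzymes (left) and for the other members (right). Pck1 and Fbp1 go from above 0.2 to just below 0 along the lobule, Pklr is highest at the pericentral end at 1.64, and Irs2 stays near -1 or below.

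The landmarks themselves differed between the sections. The 11 pericentral landmarks summed to 11274 CPM in the NCD section and 6509 CPM in the HFD section, a log2 ratio of -0.79, and the 9 periportal ones to 5080 and 4288 CPM, a log2 ratio of -0.24. Positions are ranks within a section, so a position of one section need not be the same distance from a vein as that position of the other. The part of this difference in the shallower gradients was not tested. Without Cyp2f2 and Cyp2e1 among the landmarks, the gradient of Pck1 was 0.90 on NCD and 0.66 on HFD.

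Between spots rich and poor in lipid droplet transcripts the members differed by less than 1.5-fold. Within each position the spots were ranked by 5 lipid droplet genes, such as Plin2 and Cidec, and the richest of 3 equal classes was compared with the poorest. In the HFD section Pklr was at 42.7 CPM in the rich and 36.5 CPM in the poor spots, a log2 ratio of 0.23 (0.09 to 0.36), and higher in 5 of 5 positions. Pcx was at 463 and 435 CPM, a log2 ratio of 0.09 (0.05 to 0.13), also in 5 of 5 positions. Pck1 was at 1872 and 1881 CPM, and Fbp1 at 1530 and 1535 CPM. Slc2a2 was at 279 and 269 CPM, higher in 4 of 5 positions. Among the NCD spots Irs1 was at 15.6 CPM in the rich and 11.6 CPM in the poor ones, a log2 ratio of 0.44 (0.03 to 0.85), higher in 4 of 5 positions, and the ratio of Pklr there was 0.17, with an interval from -0.16 to 0.50.

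Spot-to-spot variation was set against counting error. After every spot with at least 3000 UMIs was drawn down to 3000, the variance of Pck1 UMIs per spot was 1.31 times the mean in the NCD section and 1.29 times in the HFD section, where counting alone gives a value of 1. Within a position it was 1.06 and 1.18 times. For the other members it was between 0.999 and 1.06 times the mean on HFD. On NCD it was between 1.02 and 1.12 times, highest for Fbp1, and within a position Irs2 (1.09) and G6pc (1.07) were above Pck1 there. Pklr, Irs1 and Irs2 had means of 0.0187 to 0.127 UMIs per spot at this depth. With so few UMIs the value stays near 1 for most true variation, so it says little about these genes. For the same relative variation the value also rises with the mean, which on NCD was 5.30 UMIs per spot for Pck1 and 0.689 for G6pc. It therefore does not rank the members by their variation, and a value near 1 does not show that the variation was small.

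Across the 10 points of 5 positions in 2 sections, centred by section, each member was set against 2576 genes with at least 1000 UMIs in each section. The points share their libraries, so Pearson's r is a description. Nearest to Pck1 were the mitochondrial genes mt-Co1, mt-Cytb and mt-Co3 (r of 0.993 to 0.996), and among the genes close to Fbp1 were Selenop and C2 (0.991 and 0.984). Nearest to Pcx were Coasy and the fatty acid hydroxylases Cyp4a14 and Cyp4a10 (0.993). Nearest to Irs1 were Eng, a gene known from endothelial cells, Pink1 and Hyal2 (0.965 to 0.974). Weaker likeness was found for Pklr (Nr1h4, which encodes the bile acid receptor FXR, Gtf2h5 and Cul4a, 0.882 to 0.938), G6pc (St3gal5, Fdx2 and mt-Nd4, 0.824 to 0.895), Slc2a2 (Afmid, Apoa5 and Smim14, 0.840 to 0.899) and Irs2 (Gnpnat1, Txndc9 and Hint1, 0.834 to 0.901). Among the members Pck1 and Fbp1 were most alike, at 0.970, and Pck1 and Irs1 most opposed, at -0.934.

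Other genes of glucose handling showed how the members sit in their pathways. Among all 10665 genes with at least 200 UMIs, the minimum used for these lists, 23.6% were past 1.5-fold higher in the HFD section and 4.58% lower, with a median log2 ratio of 0.23. Of 31 further enzymes of glycolysis and gluconeogenesis with at least 200 UMIs, 9 were past 1.5-fold higher in the HFD section and 1 lower, with a median log2 ratio of 0.27, close to that of all genes. The higher ones included Tkfc, the triokinase of fructose breakdown (1.25), Pfkfb3, a regulator of glycolysis (1.04), the enolase Eno1 (1.02), Pkm, the pyruvate kinase of other tissues (0.95), and Pfkl, the phosphofructokinase of the liver (0.93), all as log2 ratios. Pkm was under 1.5-fold as a mean over spots (0.58) and with spots drawn down to 1000 UMIs (0.55). Got1, the aspartate aminotransferase of the cytosol, was at 355 and 144 CPM, a log2 ratio of -1.304.

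Of 9 glycogen genes, 4 were past 1.5-fold higher and 0 lower, among them the phosphoglucomutase Pgm2 (1.505) and the branching enzyme Gbe1 (0.97). Of 12 further genes of insulin signalling, 6 were higher and 0 lower, with a median log2 ratio of 0.52. The shares of all genes were 23.6% and 4.58%, and at the latter a count of 0 among 12 sets nothing apart. Pik3r1, the regulatory subunit of the kinase that binds IRS proteins, was at 17.3 and 46.8 CPM, a log2 ratio of 1.44 (1.301 to 1.57). Socs3 (1.41) and Trib3 (1.23), which both dampen insulin signalling, were higher too. Insr, the receptor itself, had a log2 ratio of -0.17.

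Of 14 regulators, 5 were past 1.5-fold higher and 1 lower. For this list and the fasting and feeding genes, the shares of all genes at this minimum were 23.6% and 4.58%. The higher ones were Cebpb (0.91), Foxo1 (0.90), Mlxipl, which encodes ChREBP (0.69), Sik1 (0.65) and Ppargc1a, a coactivator of gluconeogenesis (0.59). Onecut1 was the lower one, at 4.30 and 1.303 CPM. Onecut1 and Pgm2 are thin, and their log2 ratios lay between -1.99 and -0.19 and between 0.46 and 2.21 over the 10 alternative settings. Among the 9 fasting genes, 3 were higher and 1 lower. Lpin1 (3.79), Fgf21 (2.21) and Ppargc1a were higher, Cyp4a14 was lower (-1.70), and Pdk4, Igfbp1, Cpt1a, Angptl4 and Tat lay between -0.04 and 0.29. Of 8 feeding genes with at least 200 UMIs, 5 were higher and 0 lower, namely Srebf1, Fasn, Acaca, Elovl6 and Thrsp, with a list median of 0.88. Scd1 (0.05) and Me1 (0.02) were near 0.

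Clock genes also differed between the sections. Of 9 with at least 200 UMIs, 5 were past 1.5-fold higher in the HFD section and 1 lower, beside 23.6% and 4.58% of all genes at this minimum. Ciart was at 0.689 and 12.1 CPM, Per2 had a log2 ratio of 2.03, Dbp of 1.59, Per1 of 1.54 and Nr1d1 of 0.67. Arntl, which peaks at another time of day, was at -1.27. The part of feeding state and time of day in the ratios of the 8 members was not tested, and with 1 mouse per diet they cannot be told apart from the diet.

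**Figure D4:**
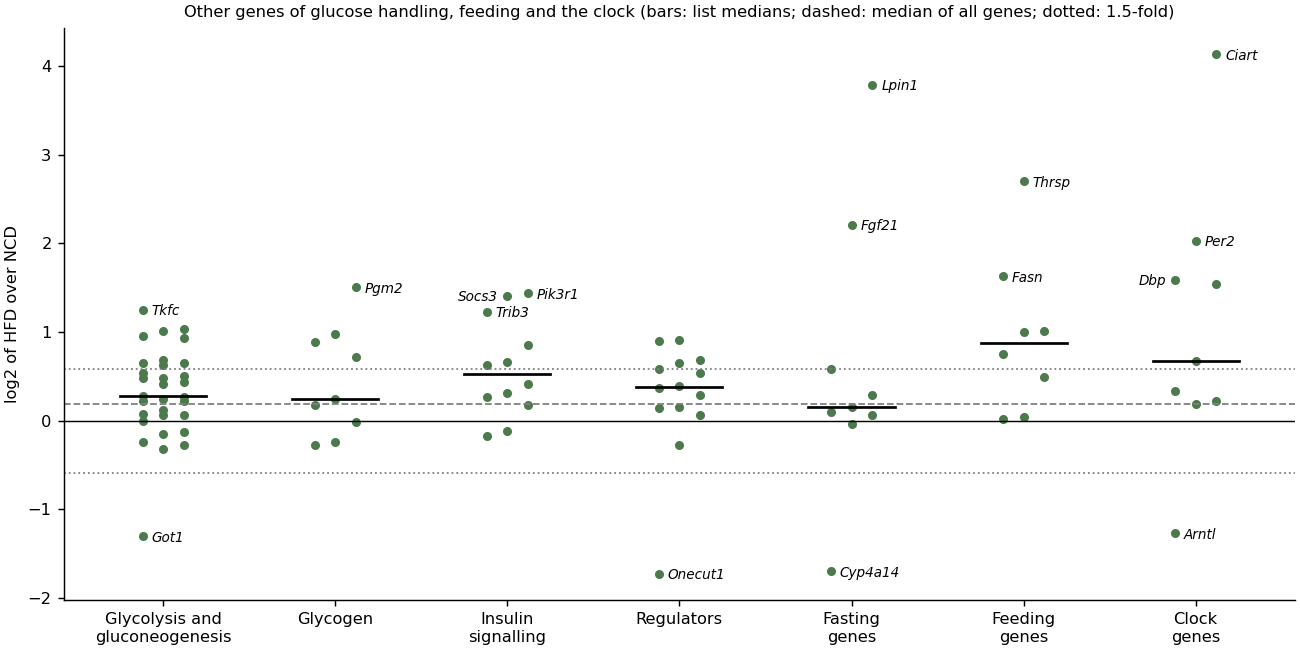
Each point is a gene with at least 200 UMIs over both sections, plotted by its log2 ratio of HFD over NCD within its list. Bars are list medians and dotted lines mark 1.5-fold. The dashed line, at 0.19, is the median of the genes with at least 1000 UMIs, and the median of those with at least 200 UMIs was 0.23. Ciart at 4.13 and Lpin1 at 3.79 stand above the rest, and Onecut1, Cyp4a14, Got1 and Arntl below.

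Cell type markers differed between the sections as well. The log2 ratio of HFD over NCD was 0.50 for 8 endothelial markers, 0.26 for 6 macrophage markers, 2.02 for 5 markers of lipid-associated macrophages, 1.13 for 6 stellate cell markers and 1.41 for 4 smooth muscle markers. It was -2.38 for 5 red blood cell genes, which summed to 6738 CPM in the NCD section and 1292 CPM in the HFD section, and -1.59 for 5 B and plasma cell markers. The 8 hepatocyte markers were at 0.20, with 2 genes past 1.5-fold. Of the endothelial markers 4 were past 1.5-fold higher and 0 lower, with Kdr at -0.16, and of the macrophage markers 2 were higher and 1 lower (Vsig4, -1.11). Of the stellate cell markers 3 were higher and 0 lower, with Igfbp3 at 0.01, Lrat at 0.32 and Reln at 0.46. Col3a1 (2.73) gave 6765 of their 13453 UMIs in the HFD section. Of the smooth muscle markers 3 were higher and 0 lower, with Myh11 at 0.31. The part of these cells in the members' ratios was not tested.

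In annotation GENCODE M21 (GRCm38) the members lie on chromosome 2 (Pck1, 173153048 to 173159273), 11 (G6pc, 101367561 to 101377903), 13 (Fbp1, 62864753 to 62888282), 19 (Pcx, 4510472 to 4621752), 3 (Pklr, 89136142 to 89146784, and Slc2a2, 28697903 to 28731359), 1 (Irs1, 82233101 to 82291416) and 8 (Irs2, 10984681 to 11008458). None overlaps a gene on its own strand. Pcx, Pklr, Slc2a2, Irs1 and Irs2 overlap a gene on the other strand, which for Pklr is Hcn3, and the strand setting of the counting is not given in the sources used here.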

How the data were processed

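The deposited values are UMI counts, with no normalization. The authors made them with Space Ranger 1.3.1, on build mm10 per the submitters' processing notes, and gave 1 matrix of the whole capture area and 1 of the spots over tissue for each section. UMIs of a gene were summed over spots and divided by all UMIs of those spots (CPM). Sums have exact Poisson intervals, and ratios exact conditional binomial intervals, at the 95% level. Lobule position was the log2 ratio of periportal over pericentral landmark UMIs, each plus 1, in spots with at least 1000 UMIs and 10 landmark UMIs. Differences between log2 ratios have intervals from their counting variances. Background shares are over genes that reached 1000 UMIs in the sum of the sections, a minimum that the deeper HFD section fills more easily.

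The members and lists were chosen with earlier results of these data known. All members are named, along with up to 10 genes per direction of the lists past 1.5-fold with at least 200 UMIs. The 3 genes most like each member are named too, as are fasting, feeding and clock genes past 1.5-fold. Further genes of the lists, such as Foxo1, Cebpb, Mlxipl, Sik1 and Insr, are named outside these rules. Shares of called genes at a minimum mean of 5 CPM or of 200 UMIs, and totals of hepatocyte markers by position, were added after seeing the data. Landmark-free totals, 3 or 10 positions, drawn-down counts and other scalings were the alternatives. The 2 capture areas share all 4992 barcodes, which are those of the slide design, and no cell can be shared. A few listed genes are not reported here and were left out of the list counts. Spot positions and images were not used here. The intervals, the drawing down and the placing of spots were tested on simulated counts. These counts had counting error only, so the tests do not cover variation beyond it. Calculations used numpy 2.4.6, pandas 2.3.3 and scipy 1.17.1 under Python 3.11.15, and figures matplotlib 3.10.9.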

Additional observations from a re-analysis of the deposited data

Results flagged for a closer look

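Spots off tissue, which entered no comparison of the report except as alternative settings, held RNA of the 8 genes above the level that a count of 0 allows. On the NCD slide the 8 genes together were at 4145 CPM off tissue, against 3984 CPM over tissue. On the HFD slide they were at 3114 CPM off tissue, against 4561 CPM over tissue. Off tissue on the NCD slide Pklr was at 21.2 CPM and Irs2 at 10.2 CPM, near the levels over tissue.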

How the results depend on the processing

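The counting of members past 1.5-fold between the sections gave 3 to 5 over 10 alternatives, against 4. Only the sign of small ratios turned, with hepatocyte marker UMIs as the total, to -0.0790 for Pck1, -0.0711 for Fbp1 and -0.00994 for Pcx. That total moved the median of all genes by -0.20 on the log2 scale, and median-of-ratios size factors by -0.07. Between the lobule ends, 2 or 3 members of the NCD section were past 1.5-fold under 11 alternatives, against 3. In the HFD section it was 2, and 1 with position from Cyp2f2 and Cyp2e1 alone, 1 with position from counts drawn down to 1000 UMIs, and 0 with 3 positions in place of 5. No gradient differed past 1.5-fold between the sections, but 1 did (Pklr) without Cyp2f2 and Cyp2e1 as landmarks, 1 with at least 3000 UMIs per spot and 1 with mitochondrial and the 20 most abundant genes left out of the total. The cause was not tested. Depth limits Irs1 and Irs2 most, with 361 and 366 UMIs in the NCD section. No paired analysis was possible because each diet has 1 section, and no replicate could be left out.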
